A study of Homo sapiens with 6 samples.

Results

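The replication-dependent histone genes were followed through the H3K27ac peak lists of Jurkat and 6T-CEM, cultured lines of human T-ALL, an acute leukaemia of T-cell precursors. They were taken as the protein-coding genes on chromosomes 1 and 6 whose symbol starts with H1-, H2AC, H2BC, H3C or H4C, which gave 68 of the 19970 protein-coding genes annotated by RefSeq on chromosomes 1 to 22 and X. Of these, 6 encode the linker histone H1, 17 encode H2A, 18 encode H2B, 13 encode H3 and 14 encode H4. A gene was said to have a peak in a library when at least 1 base of a peak lay over its body or within 1 kb of either end. Where 3 values stand together they belong to Jurkat replicate 1, then to Jurkat replicate 2, then to 6T-CEM. These values are the number of bases in that window covered by peaks and the fold enrichment over the caller's background that the authors' lists give for each peak.

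H3K27ac, acetylation of lysine 27 of histone H3, marks active promoters and enhancers. It was profiled in Jurkat cells, in replicates 1 and 2, and in 6T-CEM cells, in 1 library. The series text names CUT&Tag, in which an antibody directs a transposase to the mark, although the sample protocol speaks of sonicated chromatin. Both are established lines. The series has 6 samples, of which the 3 IgG controls were not analysed here. The title names GNE-987, an inhibitor of the BET bromodomain proteins, which read acetylated histones, and the series text speaks of exposure at 10 nM for 24 h. No label assigns a treatment to a sample, so a library could be of treated or of untreated cells, and treatment was not compared. Peak names begin with Jur in Jurkat replicate 1, Jur-NE in Jurkat replicate 2 and 6T in 6T-CEM. The labels do not explain these prefixes, so whether the Jurkat libraries differ in more than replicate is unknown. No genotype is given for either line.

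The Jurkat lists held 16159 and 32097 peaks and the 6T-CEM list 35154, over 16.2, 27.6 and 34.3 Mb. The lists carry no read counts, so the depth behind each peak is unknown, and list length, library and cell line cannot be told apart. Since 6T-CEM had 1 library, its spread is unknown and no test between the lines was made. Of 12 T-cell marker genes, 10 were found in the annotation, and 9, 10 and 10 of them had a peak (CD7 had none in Jurkat replicate 1). Their summed covered bases were 63765, 102994 and 69675. Of the B-cell genes, PAX5, EBF1 and MS4A1 had no peak in any library and CD79A had one in each. Of 5 myeloid genes, 1, 2 and 2 had one, with summed bases of 731, 3164 and 4670 and none at CD14, MPO or CEBPA. None of the 4 erythroid and 4 non-blood genes had one in any library.

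Replication-dependent histone genes supply the bulk of the histones that package newly copied DNA, and they are transcribed mainly during S phase. They are short, lack introns in their classical form, sit close together in clusters, and give mRNAs that end in a stem-loop instead of a poly(A) tail. The stem-loop is bound by SLBP, and transcription depends on the coactivator NPAT, which gathers with the genes in nuclear histone locus bodies. Many H2A and H2B genes lie head to head and share the DNA between their starts as a common promoter. These genes are highly active in dividing cells, leukaemia lines included, while a few members are known mainly from the testis.

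The promoter sequences shown here span the outcomes seen in the peak lists. They come from RefSeq, build GRCh38.p14, in which 63 of the 68 genes were matched. H4C1, H4C3, H2AC12, H3C11 and H3C12 were not matched. Capitals mark letters of 3 searched motifs on either strand: the CCAAT box (CCAAT, or ATTGG on the other strand), the TATA box (TATAAA or TTTATA) and the octamer bound by POU2F1 (ATTTGCAT or ATGCAAAT). Matches may overlap, as in TTTATAAA, which holds the TATA letters on both strands. The first 5 sequences are the whole interval between the starts of a head-to-head H2A and H2B gene, read on the plus strand. They are H2AC7/H2BC7 at chr6:26199294-26199515 and H2BC11/H2AC11 at chr6:27132796-27133042, both inside 1 peak in all 3 libraries, H2BC8/H2AC8 at chr6:26216689-26216920, under a peak in 6T-CEM only, H2AC25/H2BC26 at chr1:228457874-228458102, flanked by peaks in Jurkat only, and the testis genes H2AC1/H2BC1 at chr6:25726563-25726776, far from any peak.
H2AC7/H2BC7: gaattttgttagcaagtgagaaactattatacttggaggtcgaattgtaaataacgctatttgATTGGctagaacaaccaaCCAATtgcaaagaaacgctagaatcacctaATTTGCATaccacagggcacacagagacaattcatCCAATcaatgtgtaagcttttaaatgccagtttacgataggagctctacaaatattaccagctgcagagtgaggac
H2BC11/H2AC11: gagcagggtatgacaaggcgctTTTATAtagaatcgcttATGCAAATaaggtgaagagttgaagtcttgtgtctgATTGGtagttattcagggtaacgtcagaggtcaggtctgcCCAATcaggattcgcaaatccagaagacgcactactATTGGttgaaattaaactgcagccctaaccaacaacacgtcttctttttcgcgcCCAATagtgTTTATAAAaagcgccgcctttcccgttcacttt
H2BC8/H2AC8: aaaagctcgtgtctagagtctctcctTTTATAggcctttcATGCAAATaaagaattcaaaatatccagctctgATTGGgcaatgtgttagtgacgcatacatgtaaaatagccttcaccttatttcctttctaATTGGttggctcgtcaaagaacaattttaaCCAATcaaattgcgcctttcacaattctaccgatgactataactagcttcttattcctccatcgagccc
H2AC25/H2BC26: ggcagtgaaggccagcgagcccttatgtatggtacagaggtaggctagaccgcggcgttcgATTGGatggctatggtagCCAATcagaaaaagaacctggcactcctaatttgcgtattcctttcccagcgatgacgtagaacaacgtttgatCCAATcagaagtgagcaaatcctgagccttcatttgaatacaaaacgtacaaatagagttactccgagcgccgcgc
H2AC1/H2BC1: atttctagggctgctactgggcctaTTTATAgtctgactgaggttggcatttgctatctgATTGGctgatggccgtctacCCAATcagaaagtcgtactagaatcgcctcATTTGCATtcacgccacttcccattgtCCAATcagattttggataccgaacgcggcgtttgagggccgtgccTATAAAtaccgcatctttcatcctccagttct

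Single genes of the other families are shown by the 200 bases before their start, read on the gene's own strand. The H4 genes are H4C11 at chr6:27823892-27824091 (plus strand), with peaks in all 3 libraries, and H4C7 at chr6:26246997-26247196 (minus strand), with a peak in 6T-CEM only. The linker genes are H1-4 at chr6:26156129-26156328 (plus strand), with peaks in all 3 libraries, and H1-1 at chr6:26017788-26017987 (minus strand), with a peak in 6T-CEM only.
H4C11: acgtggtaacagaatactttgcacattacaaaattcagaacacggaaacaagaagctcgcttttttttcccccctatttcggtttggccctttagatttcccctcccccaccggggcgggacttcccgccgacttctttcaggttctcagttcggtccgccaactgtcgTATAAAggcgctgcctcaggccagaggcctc
H4C7: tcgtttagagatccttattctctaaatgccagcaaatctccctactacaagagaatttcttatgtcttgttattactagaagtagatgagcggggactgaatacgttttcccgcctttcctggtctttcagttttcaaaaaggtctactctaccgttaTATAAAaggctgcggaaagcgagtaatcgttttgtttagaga
H1-4: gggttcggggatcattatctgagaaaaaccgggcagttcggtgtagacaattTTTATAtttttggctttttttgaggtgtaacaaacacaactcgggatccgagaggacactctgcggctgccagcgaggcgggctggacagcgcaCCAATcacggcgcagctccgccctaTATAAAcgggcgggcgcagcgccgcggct
H1-1: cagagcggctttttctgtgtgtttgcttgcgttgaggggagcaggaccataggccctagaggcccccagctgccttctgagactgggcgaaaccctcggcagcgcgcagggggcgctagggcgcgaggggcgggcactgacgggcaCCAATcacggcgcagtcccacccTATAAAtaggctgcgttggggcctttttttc

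Among these sequences, genes marked in different libraries could hold the same letters. Both H4 stretches held the TATA box letters and no match to the CCAAT box or octamer, and both H1 stretches held CCAAT and TATA box letters. H2AC1/H2BC1, with no peak, held all 3 motifs, as did H2BC8/H2AC8 and H2BC11/H2AC11. H2AC25/H2BC26 held CCAAT letters alone. A match is a description of letters and not a binding site.

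Most of the histone genes carried H3K27ac. A peak was found at 55 of 68 in Jurkat replicate 1, 57 in Jurkat replicate 2 and 64 in 6T-CEM. Among all protein-coding genes the shares were 43.2%, 44.1% and 50.4%. Length matters to such a count, because a long gene offers more room for a peak, and 60 of the 68 are under 1 kb (median 494.5 bp, from 386 bp at H4C7 to 29682 bp at H2BC18, whose annotation includes a long transcript). Of genes of at most 1000 bp that are not members, 464 in all, 7.54%, 7.97% and 10.1% had a peak, against 80%, 83.3% and 93.3% of the 60 members of that length. In all 3 libraries the shares were 4.96% and 76.7%. Neighbouring members often share a peak, so these counts are not of independent genes.

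The same genes were mostly marked in each library. In all 3 libraries 53 of 68 had a peak (32.6% of all protein-coding genes), 9 had one in 6T-CEM only (6.97%), 2 in both Jurkat libraries and not in 6T-CEM (2.5%), and 2 in none (40.8%). The other two, H4C6 and H2BC9, had one in Jurkat replicate 2 and 6T-CEM. No member had a peak in a single Jurkat library and nowhere else. By family, the counts were 4, 4 and 6 of 6 H1 genes, 15, 15 and 15 of 17 H2A genes, 13, 14 and 16 of 18 H2B genes, 11, 11 and 13 of 13 H3 genes, and 12, 13 and 14 of 14 H4 genes. All 5 histone classes thus had marked genes in every library.

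**Figure D1:**
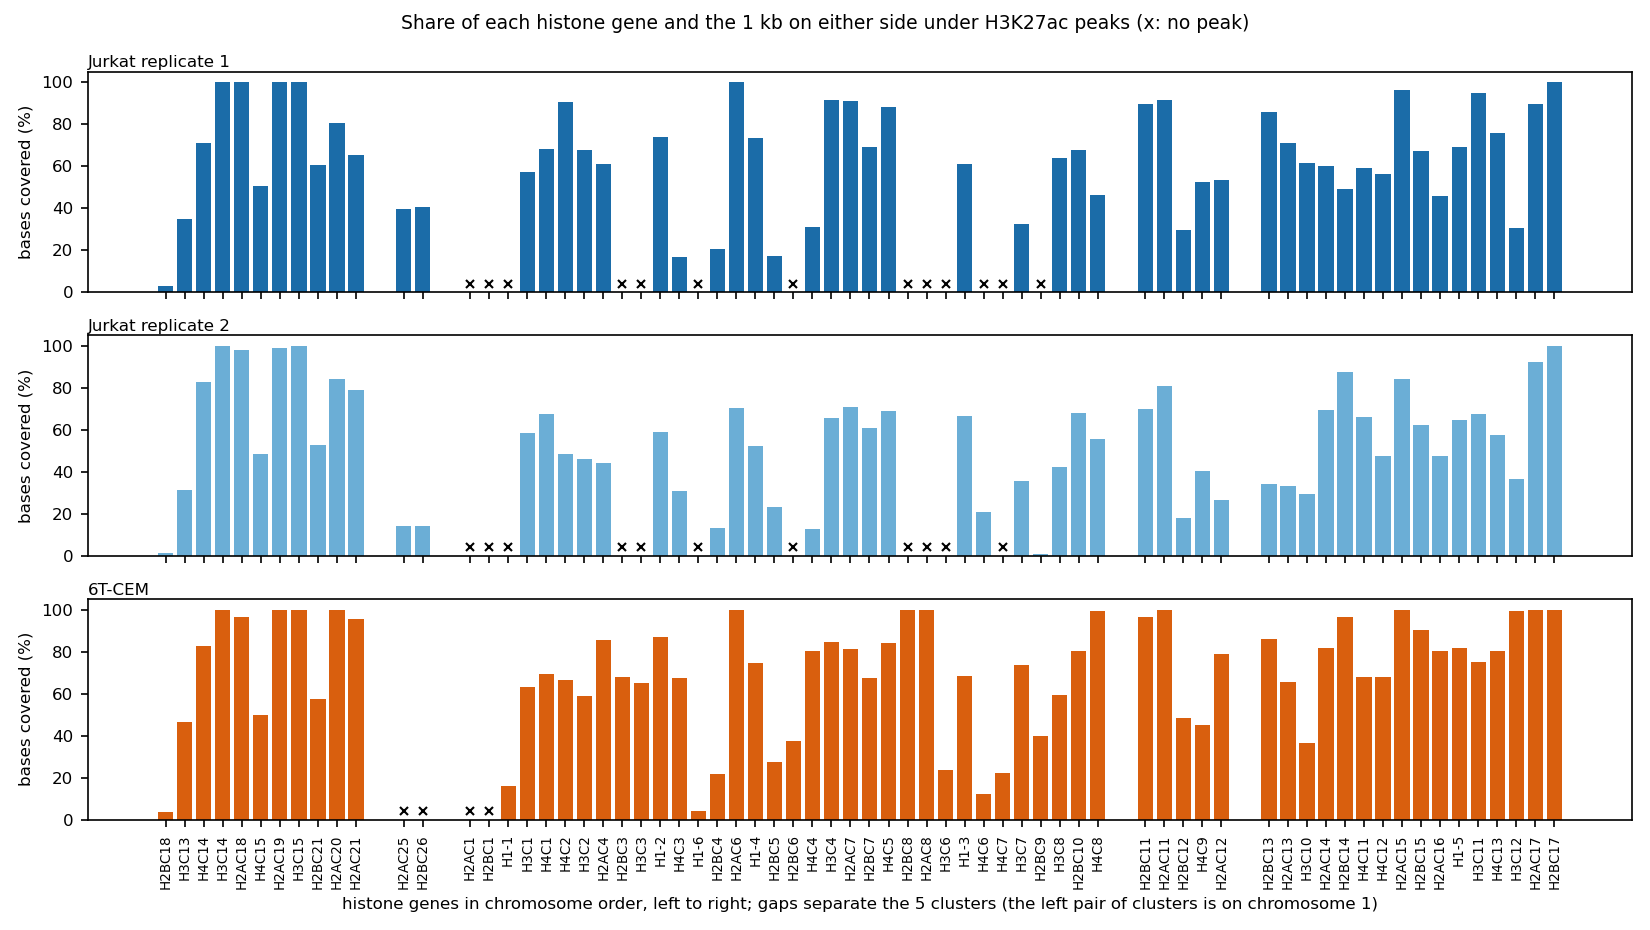
Percentage of bases under peaks in the window of each of the 68 histone genes (body plus 1 kb on either side), with 1 bar per gene and 1 panel per library, in chromosome order; a cross marks a gene with no peak. Crosses fall in the second cluster of chromosome 1 in 6T-CEM and in the first cluster of chromosome 6 in all libraries, and the median window was covered to 60.2%, 47.9% and 74.1% from the top panel to the bottom one.

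The members fall into 5 clusters when genes less than 500 kb apart are joined (build hg38). On chromosome 1 these were chr1:149782689-149887965 with 11 members from H2BC18 to H2AC21, and chr1:228457364-228458558 with H2AC25 and H2BC26. On chromosome 6 they were chr6:25726063-26285534 with 34 members from H2AC1 to H4C8, chr6:27132316-27147562 with 5 from H2BC11 to H2AC12, and chr6:27807479-27893891 with 16 from H2BC13 to H2BC17. Every member of the larger chromosome 1 cluster, of the second chromosome 6 cluster and of the last had a peak in all 3 libraries. By this count the differences between libraries all lay in the other 2 clusters. Peaks over gene bodies could differ elsewhere too. In Jurkat replicate 2 no peak lay over the body of H2BC18 or H2AC12, the nearest being 570 and 172 bp away. In the first chromosome 6 cluster 21, 23 and 32 of 34 members had a peak, and in the small chromosome 1 cluster 2, 2 and 0 of 2.

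The marked DNA made up more of some clusters than of others. Peaks covered 34.1%, 22.9% and 51.7% of the second chromosome 6 cluster. In the last chromosome 6 cluster they covered 23.5%, 27.9% and 42.2%, and in the larger chromosome 1 cluster 19.9%, 26.5% and 25.5%. The first chromosome 6 cluster, which holds non-histone genes and a long empty stretch, was covered to 5.77%, 5.67% and 11.7%. In all 3 chromosome 6 clusters 6T-CEM had the largest covered share, while in the larger chromosome 1 cluster it lay between the Jurkat libraries.

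**Figure D2:**
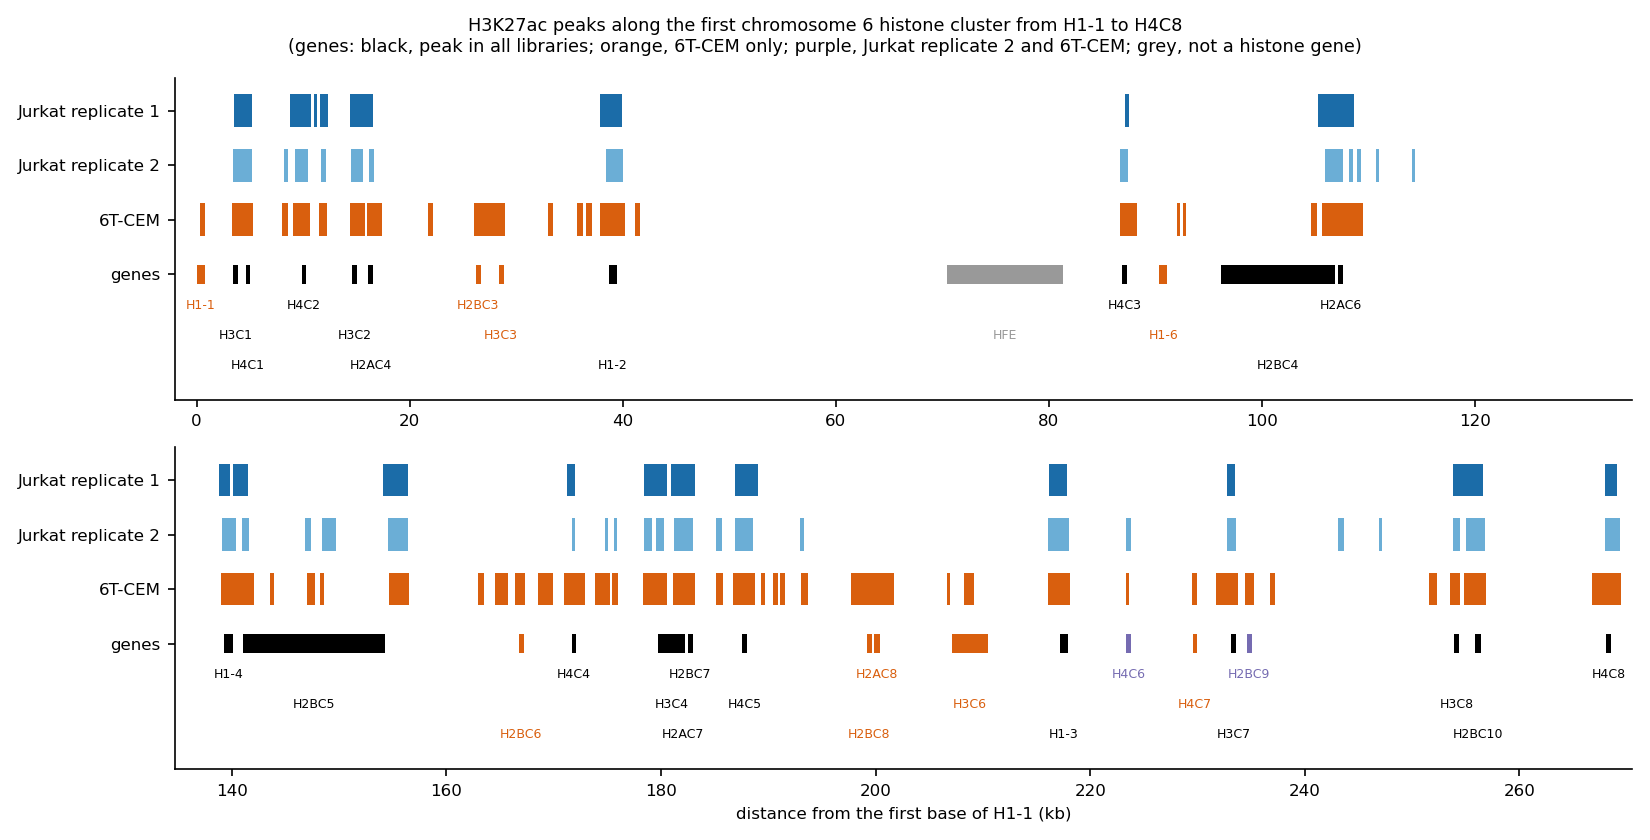
Peaks of each library (bars) above the histone genes between H1-1 and H4C8, in kb from the first base of H1-1, in 2 consecutive stretches; gene colours give the libraries with a peak. The 269 kb held 19, 35 and 52 peaks from the top row to the bottom one, and the 9 members with a peak in 6T-CEM only (orange) are scattered among members marked in all libraries (black).

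Most starts of the histone genes lay under a peak. An annotated start lay under a peak at 44, 41 and 56 of the 63 genes with a known start, where the shares of all 15811 protein-coding genes with one were 33%, 21.2% and 30%. The whole gene body lay under peaks at 37, 36 and 53 of 68 members. Averaged over starts, coverage was highest at 150 and 200 bp downstream in Jurkat replicate 1 (79.4% of members). In Jurkat replicate 2 it was highest at 350 bp downstream (77.8%), after 76.2% from 150 to 300 bp. In 6T-CEM it stood at its highest, 90.5%, from 50 to 250 bp downstream. At 1000 bp upstream it was 38.1%, 27% and 52.4%, and at 1000 bp downstream 49.2%, 31.7% and 61.9%. The mark thus spanned the transcribed part as well as the promoter.

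In the median, the highest peak near a start reached about as far to each side. At the 50, 52 and 59 members with a peak within 1 kb of a start, the highest such peak by fold was measured. These members had 53, 55 and 63 such starts, and the peak measured need not cover the start. Its median edges lay at -936, -729 and -991 bp from the start upstream and at 1097, 885 and 1226 bp downstream. The median summit was 158, 133 and 172 bp after the start, inside the gene body. Its quartiles were -424 and 328 bp, -485 and 294.5 bp, and -383 and 338.5 bp, so many summits lay upstream of the start. At 3000 bp upstream 11.1%, 15.9% and 23.8% of members still lay under a peak, against 1.15%, 1.85% and 2.42% of all genes. Other members lie at such distances, and peaks at them are counted here too.

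**Figure D3:**
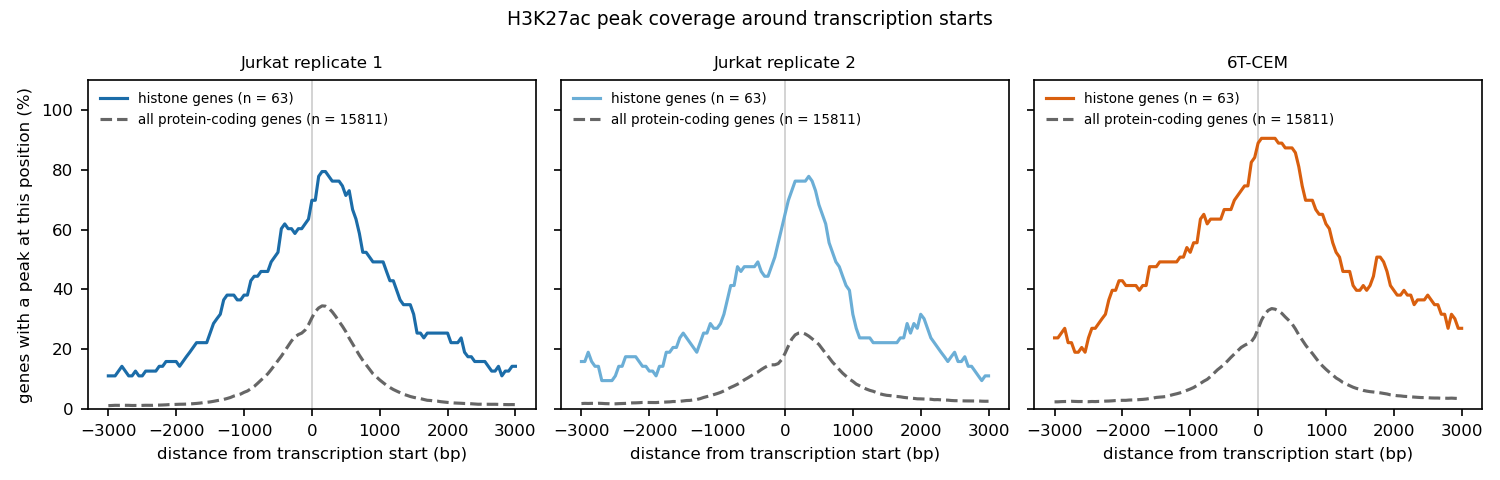
Percentage of genes with a peak at each distance from the transcription start, in bp along the gene's own strand, for 63 histone genes (solid) and 15811 protein-coding genes (dashed), 1 panel per library. Coverage of the histone genes peaked at 79.4%, 77.8% and 90.5% just after the start, and that of all genes at 34.5%, 25.5% and 33.6%.

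The peaks themselves were wide. The members were served by 48 distinct peaks in Jurkat replicate 1, 55 in Jurkat replicate 2 and 56 in 6T-CEM, and 25, 27 and 26 of these touched the windows of 2 or 3 members. Their median widths were 1517.5, 1079 and 1761.5 bp, where the lists' medians were 762, 583 and 647 bp. Peaks wider than 1 kb made up 64.6%, 52.7% and 66.1% of them and 35.7%, 24.3% and 29.7% of the lists.

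Fold enrichments were read only against the same list, since depth and background differ between libraries. The median fold of the peaks at histone genes was 7.27 in Jurkat replicate 1 (list median 5.17), 7.78 in Jurkat replicate 2 (list median 4.33) and 10.4 in 6T-CEM (list median 4.65). Above the list's median lay 36 of 48, 51 of 55 and 53 of 56 peaks. In the top 10% of the list by fold lay 15, 31 and 38 of them, or 31.2%, 56.4% and 67.9%. Genes with a peak, of any kind, had median highest folds of 5.90, 4.94 and 5.19 at the gene, and members with a peak 8.11, 8.78 and 12.5. By median, peaks at these genes were thus wider and higher than their list in each library, with the smallest share of top peaks in Jurkat replicate 1. The lists include peaks far from genes, and a wide peak touches a gene's window more readily. Genes with a peak, of any kind, had median covered bases of 1181, 1226 and 1346, and members with a peak 1714, 1615 and 2008. Width and fold were summarised apart, and peaks both wide and high were not counted.

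**Figure D4:**
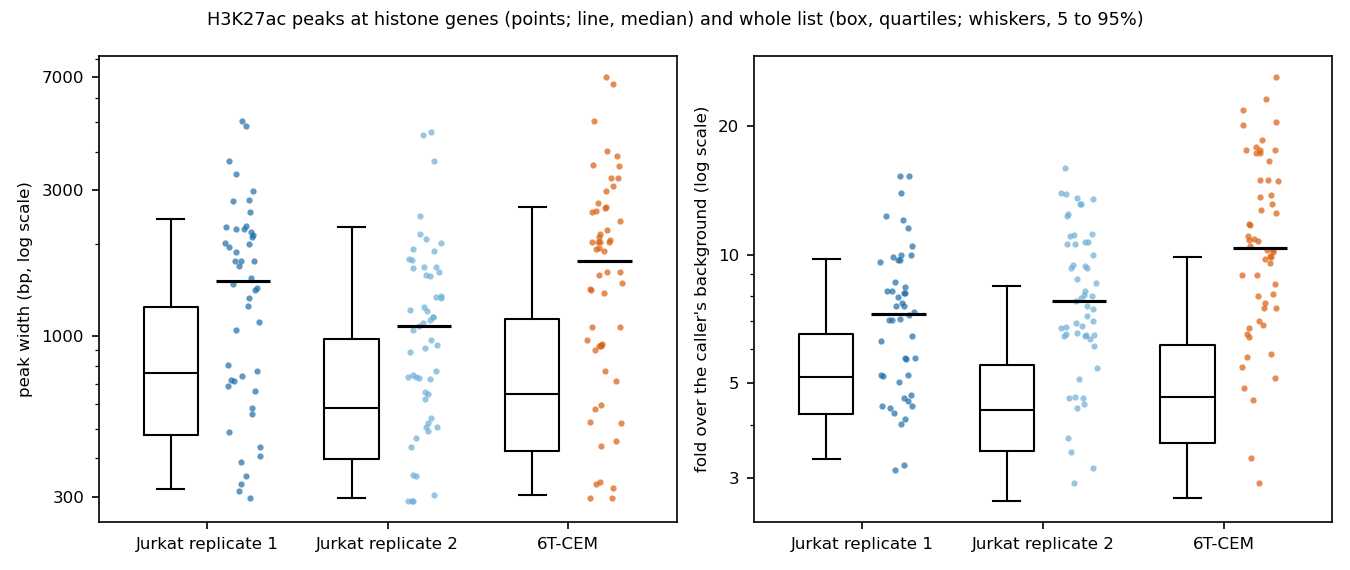
Width in bp (left, log axis) and fold enrichment over the caller's background (right, log axis) of each distinct peak at a histone gene (points, with a line at the median) beside all peaks of the same list (box, quartiles and median; whiskers, 5 to 95%). Median widths of 1517.5, 1079 and 1761.5 bp lie above the lists' medians of 762, 583 and 647 bp, and some peaks at histone genes lie below the lists' lower quartiles.

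H1 proteins bind the linker DNA where it enters and leaves the nucleosome. Of the 5 somatic H1 genes here, H1-2, H1-3, H1-4 and H1-5 were marked in every library. H1-2 had 2021 covered bases in Jurkat replicate 1, 1615 in Jurkat replicate 2 and 2368 in 6T-CEM, with highest folds of 7.22, 8.22 and 10.8. H1-3 had 1697, 1852 and 1895 bases (folds 8.38, 9.96 and 10.2). These somatic subtypes are among the main H1 proteins of dividing cells. H1-4 had 2052, 1453 and 2082 bases (folds 7.60, 8.78 and 23.1), and H1-5, in the last cluster, had 1938, 1811 and 2283 (folds 7.06, 13.9 and 17.6). The 6T-CEM peak over H1-4, chr6:26156034-26159124, was number 18 of 35154 by fold and covered the whole printed stretch of H1-4.

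H1-1 and H1-6 stood apart from these. H1-1 had 0 covered bases in both Jurkat libraries and 438 in 6T-CEM (fold 5.86). H1-6, the testis-specific H1t, had 0, 0 and 107 bases, the latter from a peak 894 bp upstream of its start (fold 5.14). The body of H1-6 was thus bare in all 3 libraries. All 6 H1 genes had more covered bases in 6T-CEM than in either Jurkat library, though at H1-4 the gap to Jurkat replicate 1 was small.

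H2A and H2B form the dimers that flank the H3-H4 core of the nucleosome. Their genes include 11 head-to-head pairs with 194 to 248 bp (median 236 bp) between the starts. A single peak spanned both starts of 8 pairs in Jurkat replicate 1, 6 in Jurkat replicate 2 and 9 in 6T-CEM. The 6 pairs spanned in all 3 were H2BC21/H2AC20, H2BC4/H2AC6, H2AC7/H2BC7, H2BC11/H2AC11, H2AC15/H2BC15 and H2AC17/H2BC17. H2BC13/H2AC13 and H2AC14/H2BC14 were spanned in Jurkat replicate 1 and 6T-CEM. At H2BC13/H2AC13 the interval between the starts was bare in Jurkat replicate 2, while at H2AC14/H2BC14 a peak reached into it.

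Printed pairs show the range. H2AC7 had 2280, 1784 and 2035 covered bases, and H2BC7 had 1714, 1507 and 1667. Both were thus covered to a like extent in the 3 libraries. The peak over the pair had folds of 9.90, 4.62 and 17.2, where the list medians were 5.17, 4.33 and 4.65. In Jurkat replicate 2 it was thus close to its list's median. H2BC11 had 2222, 1735 and 2395 bases and H2AC11 had 2287, 2022 and 2493. The H2AC17/H2BC17 pair at the end of the last cluster had 2231, 2293 and 2487 bases at H2AC17 and 2467 in every library at H2BC17, whose window was covered in full each time. In 6T-CEM that pair and H3C12 lay under 1 peak of 7021 bp, chr6:27889327-27896347, with a fold of 20.4 and number 56 in the list.

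H3 and H4 make up the central tetramer, and lysine 27 of H3 is itself the residue whose acetylation was measured. The covered bases of the 13 H3 genes had medians of 1533, 1054 and 1616. H3C11 and H4C13 lay under 1 peak in Jurkat replicate 1. In Jurkat replicate 2 and 6T-CEM each body lay under its own peak, that over H4C13 with folds of 8.02 and 21.7. H3C11 had 2375, 1689 and 1876 bases (folds 9.96, 13.97 and 26.1), and H4C13 had 1810, 1377 and 1917. The 6T-CEM peak over H3C11, chr6:27871001-27872487, was the highest by fold at any histone gene and number 8 of 35154 in the list. H3C12, in the same cluster, had 771, 919 and 2500 bases, so the Jurkat libraries were close to each other and 6T-CEM lay far above. H3C10 had 1533, 727 and 905 bases (folds 7.03, 10.7 and 20.1), with its 6T-CEM peak at number 61 by fold.

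The 14 H4 genes encode one and the same protein in most cases and are scattered through the clusters. Their covered bases had medians of 1377.5, 1247.5 and 1641.5. H4C12 had 1338, 1131 and 1616 bases with folds of 15.2, 9.47 and 10.7, and its Jurkat replicate 1 peak was number 46 of 16159. H4C11, whose upstream stretch is printed, had 1417, 1576 and 1620. H4C3 had 408, 748 and 1620 bases and H4C4 had 741, 303 and 1929. The latter pair were low in both Jurkat libraries and high in 6T-CEM.

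Among the remaining members highest by fold, H2BC5 had folds of 13.9, 13.5 and 23.1. Its long annotation begins close to H1-4, and in 6T-CEM both take their highest fold from the peak at H1-4. In Jurkat the highest folds came from chr6:26171167-26173459 and chr6:26171602-26173502, at the far end of that annotation. The peaks over the H2BC5 start had folds of only 4.44 and 6.56 in Jurkat replicates 1 and 2. H2AC16 in the last cluster had 1142, 1180 and 1997 bases and the same highest folds as its neighbour H1-5. In 6T-CEM 1 peak lay over both genes. In Jurkat these folds belong to the peak over H1-5, which only reaches the window of H2AC16. The peak over H2AC16 itself had folds of 6.27 and 3.73 in Jurkat replicates 1 and 2. In the larger chromosome 1 cluster a Jurkat replicate 1 peak of 5049 bp, chr1:149849814-149854862, with a fold of 15.3 and number 45 in the list, lay over H2AC19 and H3C15 and within the long annotation of H4C15. In Jurkat replicate 2 the highest fold at a histone gene was 15.9, at chr1:149860181-149862264 over the start of H4C15 (number 63 of 32097).

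That cluster holds near-identical copies whose reads the aligner may not be able to place. The promoter windows of H2AC18 and H2AC19 were identical over all 299 compared bases, those of H3C14 and H3C15 over 296, and those of H4C14 and H4C15 over 300. No source used here gives how reads with several matches were treated, so values of the copies are uncertain and may describe either one. H2AC18 had 2533, 2481 and 2445 covered bases and H2AC19 had 2534, 2509 and 2525. H3C14 had 2522 and H3C15 had 2518 in every library, each a window covered in full. H4C14 had 1701, 1983 and 1983, and H4C15 had 9451, 9105 and 9303 over its long annotation. The members of each H2A and H3 pair were thus covered alike in all 3 libraries.

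The 9 members with a peak in 6T-CEM only all lie in the first chromosome 6 cluster, among genes marked in every library. H2BC3 and H3C3 had 1683 and 1616 covered bases in 6T-CEM from 1 shared peak, chr6:26043031-26045999, of 2969 bp, with a fold of 18.5, a −log10 q of 52.9 and number 109 in the list. The nearest Jurkat peaks lay 9594 and 9535 bp from H2BC3 in replicates 1 and 2 and 9060 and 9575 bp from H3C3. H2BC8 and H2AC8 had 2489 and 2517 bases in 6T-CEM, both windows in full, under a peak of 4021 bp, chr6:26214752-26218772, with a fold of 16.6 and number 200. For H2BC8 the nearest Jurkat peaks were 10119 and 5833 bp away, and for H2AC8 10840 and 6554 bp. These 4 genes thus had wide 6T-CEM peaks near the top of its list and none within several kb in Jurkat.

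The other 5 had smaller 6T-CEM peaks. H2BC6 had 929 bases (fold 7.48), with the nearest Jurkat peaks 4079 and 4518 bp away. H4C7 had 526 bases (fold 7.70), with the nearest Jurkat peaks 2756 and 2753 bp away. H3C6, whose annotation is long, had 1237 bases (fold 6.42), with the nearest Jurkat peaks 5743 and 5665 bp away. For H1-1, given above, these were 2732 and 2705 bp away, and for H1-6 2820 and 2921 bp. When each list was cut to its 16159 strongest peaks, the length of the shortest list, H2BC3, H3C3, H2BC6, H2BC8, H2AC8 and H4C7 still had a peak in 6T-CEM alone, and the count fell from 9 to 6.

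The reverse pattern was held by 1 head-to-head pair. H2AC25 and H2BC26, on the long arm of chromosome 1 beyond the main cluster, each had 992 covered bases in Jurkat replicate 1 and 352 in Jurkat replicate 2, and 0 in 6T-CEM. In Jurkat replicate 1 the bases came from peaks at chr1:228457244-228457801 (fold 4.38) and chr1:228458231-228458664 (fold 5.69), and in Jurkat replicate 2 from chr1:228457212-228457563 (fold 3.46). These lie on either side of the printed interval, and neither start was under a peak in any library. In 6T-CEM the nearest peak was 21285 bp from H2AC25 and 20600 bp from H2BC26. At equal list length neither gene had a peak in both Jurkat libraries, so the count fell from 2 to 0.

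H2AC1 and H2BC1, which encode testis histones, had no peak in any library. The nearest peaks were 235932, 236250 and 236310 bp from H2AC1 and 235149, 235467 and 235527 bp from H2BC1. With H1-6, whose body was bare, all 3 testis genes were without H3K27ac over the gene itself.

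Of the members marked in part of the libraries, H4C6 had 0 covered bases in Jurkat replicate 1, 507 in Jurkat replicate 2 (fold 6.78) and 296 in 6T-CEM (fold 2.93, −log10 q 2.68). H2BC9 had 0, 21 and 978 bases, the 21 being the edge of a peak at the neighbouring H3C7. Each thus had a weak peak or a short overlap in at least 1 library.

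Taking covered bases gene by gene, 6T-CEM exceeded both Jurkat libraries at 44 of the 68 members, lay below both at 3 and lay within or equal to them at 21. Among all protein-coding genes 27.8% were above and 10.1% below, and among the 11830 with a peak in any library 47% and 17%. Jurkat replicate 1 had more covered bases than Jurkat replicate 2 at 36 of 68, and at 42.5% of the genes with a peak in any library. The median covered bases were 1630.5, 1415 and 1988.5. In the first chromosome 6 cluster 24 of 34 members had their highest value in 6T-CEM and none their lowest, and in the larger chromosome 1 cluster the numbers were 4 and 1 of 11. With each list cut to its 16159 strongest peaks the medians were 1630.5, 1293 and 1988.5. Whether depth had a part in these differences was not tested.

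Promoter letters were counted by family and by peak pattern. In windows of 250 bases before to 50 after the start, the CCAAT letters were present in 54 of 63 members (85.7%) and in 35.7% of all 27305 promoters of the table. The TATA box letters were present in 41 (65.1%, against 12%) and the octamer in 26 (41.3%, against 1.8%). All H1, H2A, H2B and H3 windows held CCAAT, but only 3 of 12 H4 windows did. The octamer was in 14 of 18 H2B and 11 of 16 H2A windows, in 1 of 11 H3 windows, and in none of the 6 H1 or 12 H4 windows. Windows of head-to-head genes overlap, so an octamer of the H2B promoter is often counted again for H2A. The H3 window with the octamer was that of H3C4, taken at a listed start that is also the start of H2AC7. All H3 counts thus include this promoter of the H2AC7/H2BC7 pair. The octamer was in 19 of the 48 members marked in all 3 libraries, 4 of the 9 marked in 6T-CEM only, and both unmarked genes. The TATA box letters were in 32 of 48, 7 of 9 and both, and in neither H2AC25 nor H2BC26.

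**Figure D5:**
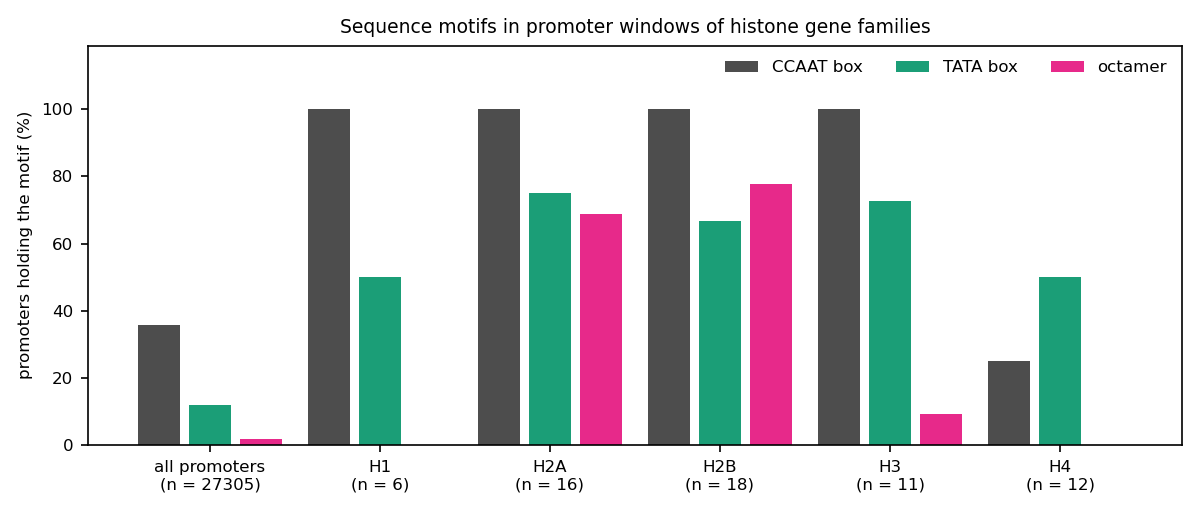
Percentage of promoter windows (250 bases before to 50 after the start) holding the CCAAT box, TATA box or octamer letters on either strand, for all promoters of the table and for each histone family. CCAAT was in 100% of H1, H2A, H2B and H3 windows and 25% of H4 windows, and the octamer was in 77.8% of H2B and 68.8% of H2A windows, against 1.8% of all promoters.

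Most of the 23 listed genes that regulate the histone genes or process their mRNAs had a peak in each library. The counts were 22, 15 and 19, and 14 in all 3. Among all protein-coding genes the shares were 43.2%, 44.1% and 50.4%, and 32.6% in all 3. Many of the listed genes are far longer than most histone genes, and a long gene offers more room for a peak. No share matched to their length was computed. NPAT had 1986, 1306 and 1437 covered bases, and SLBP 2138, 2097 and 2139. The highest folds at these genes were 10.9 at CPSF2, a subunit of the cleavage machinery, in Jurkat replicate 1, 9.71 at CPSF2 in Jurkat replicate 2, and 14.2 at ERI1, an exonuclease that trims histone mRNA ends, in 6T-CEM. Next came NFYC, a subunit of the CCAAT-binding factor NF-Y, and NPAT in Jurkat replicate 1 (10.5 and 9.39), CRAMP1 and SYMPK, a scaffold of the cleavage complex, in Jurkat replicate 2 (9.04 and 8.26), and CRAMP1 and CPSF2 in 6T-CEM (11.7 and 10.4).

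CSTF2, a 3' end processing factor, had no peak in any library. Of the other regulators absent from some list, ZNF473 had 487 and 942 bases in Jurkat and 0 in 6T-CEM. LSM11, of the U7 snRNP, CASP8AP2, ERI1, HINFP, an H4 gene activator, and CCNE2 lacked a peak in Jurkat replicate 2 only. CCNE1, the cyclin E that activates CDK2, and the endonuclease CPSF3 had one in Jurkat replicate 1 only. Jurkat replicate 2, with the longer Jurkat list, thus lacked peaks at 7 regulators that replicate 1 marked, while every histone gene with a peak in replicate 1 also had one in replicate 2.

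Histone genes outside the rule, mostly replication-independent variants, had a peak at 9, 9 and 12 of 13. The shares of all protein-coding genes were 43.2%, 44.1% and 50.4%, not matched for length. MACROH2A1 had the highest fold of this list in Jurkat (13.0 and 12.9), and H2AX, the DNA damage variant, in 6T-CEM (10.2). Next by fold were H2AX and H3-3A in Jurkat replicate 1 (7.60 and 7.01) and MACROH2A1 and H3-3A in 6T-CEM (7.72 and 7.32). In Jurkat replicate 2, H3-3B had a highest fold of 7.32. H4C16, an H4 gene of chromosome 12 and thus outside the rule, had 825, 1156 and 1519 bases. MACROH2A2 and H2AJ had a peak in 6T-CEM only, H1-10 in Jurkat replicate 2 and 6T-CEM, H2AZ1 in Jurkat replicate 1 and 6T-CEM, and H3-5 in no library.

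Histone chaperones had a peak at 10, 11 and 11 of 12, against 43.2%, 44.1% and 50.4% of all protein-coding genes. Here too length was not matched. The highest folds were at SUPT16H, a FACT subunit, in Jurkat replicate 1 (16.3) and at HIRA, which deposits H3.3, in Jurkat replicate 2 (18.5) and 6T-CEM (15.1). CHAF1A, a CAF-1 subunit, and HIRA followed in Jurkat replicate 1 (11.8 and 11.5), ASF1A and CHAF1A in Jurkat replicate 2 (9.58 and 9.42), and SUPT16H and CHAF1A in 6T-CEM (7.70 and 6.83). NASP, an H3-H4 chaperone, had a peak in Jurkat replicate 1 only, and DAXX and ATRX in Jurkat replicate 2 and 6T-CEM. Of 7 non-histone genes inside the clusters, TRIM38 alone had a peak, in all 3 libraries (1033, 754 and 1135 bases), and HFE, SLC17A2, SLC17A3, SLC17A4, FCGR1A and LOC124904411 had none. Not all peaks in the clusters were at histone genes: in the first chromosome 6 cluster 18 of 20, 24 of 36 and 32 of 55 were, in the last 11 of 14, 15 of 25 and 11 of 27, and in the larger chromosome 1 cluster 14 of 16, 11 of 23 and 8 of 17.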

How the data were processed

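H3K27ac was profiled in Jurkat (2 libraries) and 6T-CEM (1 library), grouped by their titles. Bowtie2 2.2.5, MACS2 2.2.7 and build hg38 were used, per the submitters' processing notes. Their options are not given in the sources used here, nor is any use of the IgG samples. The authors deposited 1 peak list per library, with a score, a fold (the ratio of signal to modelled background), a −log10 p-value, a −log10 q-value and a summit for each peak. The lists hold no read counts, which leaves depth unknown, and values were not scaled.

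The members and gene lists were chosen with earlier results of these data known. Gene positions, starts and promoters came from RefSeq (GRCh38.p14). Peaks on chromosomes 1 to 22 and X sharing at least 1 base with a gene or the 1 kb on either side were counted and their covered bases summed. Shared peaks count for each gene. No test was run and no p-value computed, since 6T-CEM had 1 library. Values were given in full for each H1 gene, the 5 members highest by fold per library, members marked in 1 line only or in neither, testis genes and near-identical copies, and of the lists for members lacking a peak in some library and the 3 highest by fold. Other members are named as examples chosen after their values were seen. Some genes of the lists are not reported here.

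Alternatives were a minimum −log10 q of 5, an overlap of at least 200 bp, windows of 0 and 2.5 kb, peaks with the summit in the window, lists cut to 16159 peaks, and each Jurkat library left out. Backgrounds of genes of at most 1000 bp were added after seeing the data. In simulated data all 2000 genes were recovered, and 204 member values recounted base by base showed 0 differences. Python 3.11.15, NumPy 2.4.6, pandas 2.3.3 and matplotlib 3.10.9 were used.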

Additional observations from a re-analysis of the deposited data

How the results depend on the processing

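The number of members with a peak in each library and in all 3 stayed within 1.5 times of the reported count under each alternative tried. With 1 Jurkat library left out, the members with a peak in all remaining libraries numbered 53 to 55, those in 6T-CEM only 9 to 11, and those in Jurkat only 2 to 2. The 2 members marked in Jurkat only became 0 at equal list length, 1 with the gene body alone and 5 with the summit in the window (H2AC25 and H2BC26 with H2AC21, H2AC16 and H3C12, whose 6T-CEM peaks have their summit outside). Median covered bases (1630.5, 1415 and 1988.5, with Jurkat replicates 1 and 2 before 6T-CEM) follow the window by construction: 471, 463.5 and 487 for the body alone, 2213.5, 1964 and 3252 within 2.5 kb, 1377.5, 1154.5 and 1789 with the summit in the window, and 1428.5 in Jurkat replicate 1 at a −log10 q of 5 or more. The median highest fold was 9.32 in Jurkat replicate 2 at equal list length, 7.57 there for the body alone, 10.6 there and 13.8 in 6T-CEM within 2.5 kb, and 7.78 and 11.8 with the summit in the window (the cause was not tested). The share of genes with a peak was 15.8%, 16.6% and 19.7% among those of at most 1000 bp, and 7.54%, 7.97% and 10.1% with the members removed, both added after seeing the data. No paired analysis was possible because 6T-CEM has 1 H3K27ac library and the lines share fewer than 2 replicate numbers. Unknown depth limits every absence of a peak to "not called in this list".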

Other observations

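Other non-coding genes lie among the histone genes, and the choice to count them was made after the data were seen. Of 14 histone pseudogenes on chromosomes 1 and 6 with the same symbol prefixes, 8, 7 and 9 had a peak over the body or within 1 kb in the Jurkat replicates 1 and 2 and in 6T-CEM. Of the 5 that lie over 2 kb from a member, 1, 0 and 0 did. Chromosome 6 also holds a large group of transfer RNA genes, transcribed by RNA polymerase III, between its outermost histone genes. Of these 98 genes 8, 3 and 7 had a peak (8.16%, 3.06% and 7.14%), where 59, 40 and 67 of all 443 transfer RNA genes on chromosomes 1 to 22 and X did (13.3%, 9.03% and 15.1%).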
